A study of Homo sapiens with 688 samples.

Results

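The samples described here are BT20 cells, a triple-negative breast carcinoma line, treated for 6 h with aprepitant at 2 µM. They were chosen by drug label: 12 wells of a 96-well plate profiled by PLATE-Seq and 2 pools profiled by TruSeq RNA-Seq, which makes 14 of the 688 samples of the series. The reference groups on the same plate were the vehicle DMSO, gemcitabine at 0.194 µM (a deoxycytidine analogue that blocks DNA synthesis) and albendazole at 0.56 µM (a benzimidazole that binds tubulin), each with 12 wells and 2 pools and each also for 6 h. Every dose had been set to leave 80% of cells viable after 48 h. PLATE-Seq gives each well its own barcode and sequences the 3′ ends of its mRNA, whereas each TruSeq pool combined part of the lysate of 6 wells of 1 condition, so both assays read the same wells. All wells came from 1 plate, so p-values measure the spread between its wells or pools and not between separate experiments, and in bulk RNA fewer cells of a kind and less RNA per cell cannot be told apart.

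Aprepitant blocks the neurokinin-1 receptor, the product of TACR1, a Gq-coupled receptor whose main ligand is substance P, a neuropeptide encoded by TAC1. It is given against nausea, and it is also a substrate and inhibitor of the drug-metabolising enzyme CYP3A4. 2 families of genes that sense foreign chemicals are central below. The aryl hydrocarbon receptor (AHR) is a ligand-activated transcription factor that pairs with ARNT, binds the xenobiotic response element and drives CYP1A1 and CYP1B1, which oxidise polycyclic compounds and steroids. NRF2 (NFE2L2) is held back by KEAP1 and, once released, binds antioxidant response elements near genes for glutathione synthesis, thioredoxin recycling and NADPH supply.

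The cells carried the markers of their line. In the aprepitant pools EPCAM stood at 262 and 275 counts per 1000000 assigned reads (CPM), and KRT8 and EGFR exceeded 1000 CPM in every aprepitant and DMSO pool. PGR was at 0 in all 4 pools and ESR1 lay between 9.54 and 10.7 CPM. Among markers of other cells, the leukocyte gene PTPRC was at most 0.0706 CPM, KLK3 and GFAP were at 0, and the endothelial genes KDR, PECAM1 and VWF were at 0, near 1 and near 2 CPM, although CDH5 reached 146.3 CPM. Assigned reads ranged from 848531 to 1317952 per aprepitant well (median 1011542) and from 22234710 to 28335422 per TruSeq pool over these 4 groups. DMSO replicate 5 was the shallowest well, with 367848, and DMSO replicate 6 had spike-in reads unlike those of its neighbours. Wells of 1 condition sat at well numbers 8 apart, so position on the plate and treatment cannot be told apart.

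TACR1 itself was barely expressed and did not pass the test. Its TruSeq level (hg19 chr2:75273590-75426646, minus strand) was 4.48 and 3.69 CPM with aprepitant and 3.93 and 4.46 CPM with DMSO, resting on at least 82 reads per pool. The groups overlapped, and the log2 fold change was −0.01 (SE 0.17, edgeR adjusted p = 0.979). PLATE-Seq counted 0 TACR1 reads in all 12 aprepitant wells and at most 2 in a DMSO well, so a difference was not detectable at that depth. The ligand genes TAC1 and TAC3 and the receptor gene TACR3 were at 0 in the aprepitant and DMSO pools, and TACR2, TAC4 and the peptidase gene MME did not exceed 0.15 CPM. Of the 17 tested genes of the Gq and phospholipase C relay downstream of such receptors, none was called in TruSeq by edgeR or by DESeq2 (3 had an unadjusted p under 0.05, as did 19.1% of all genes tested), and their median log2 fold change was 0.05 against 0.01 over all genes.

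Over all genes the TruSeq response against DMSO was small in size and rested on few libraries. A gene is called here where its edgeR adjusted p is under 0.05. Of 14970 genes tested, 272 (1.82%) were called, 90 (0.601%) lower and the rest (1.22%) higher with aprepitant. The changes were modest, with a median of 0.28 on the log2 scale among the risen genes and −0.24 among the fallen, and 256 of the 272 had at least 10 CPM in the higher group. In all 272 both aprepitant pools lay on the same side of both DMSO pools, as they did in 7083 genes (47.3%) of those tested. The count fell to 3 without aprepitant replicate 1 and to 1 without DMSO replicate 1, and rose to 814 without aprepitant replicate 2 and to 523 without DMSO replicate 2. Aprepitant replicate 1 was sequenced in lane 1, and the other aprepitant pool and both DMSO pools in lane 2. With lane as a term, where the contrast rests on the lane 2 pools, 3 genes (0.02%) were called, and these were CYP1A1, CYP1B1 and GPCPD1.

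CYP1B1 was the only gene called against DMSO in TruSeq by edgeR and in PLATE-Seq by DESeq2. In TruSeq, CYP1B1 (hg19 chr2:38294116-38337044, minus strand) stood at 893 and 898 CPM with aprepitant and at 1129 and 1110 CPM with DMSO. Gemcitabine pools held 1060 and 1067 CPM and albendazole pools 1102 and 1054 CPM, so both aprepitant pools lay below the 6 others. The fall against DMSO was 19.5%, a log2 fold change of −0.31 (SE 0.04, edgeR adjusted p = 4.43e-05). It stayed called against DMSO without each of these 4 pools in turn and with the lane term (−0.32, adjusted p = 0.00187).

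PLATE-Seq placed CYP1B1 in the same direction well by well. The 12 aprepitant wells ranged from 349 to 583 CPM with a median of 467, and the 12 DMSO wells from 518 to 835 CPM with a median of 627. All 12 aprepitant wells lay below the DMSO median and 9 lay below every DMSO well. The log2 fold change was −0.39 (SE 0.09), with an edgeR adjusted p of 0.158 and a DESeq2 adjusted p of 0.0453. A further reference, chosen after seeing the data, was the mean of the gemcitabine and albendazole groups (24 wells), kept as separate groups in the fit. Against it the log2 fold change of CYP1B1 was −0.36 (edgeR adjusted p = 0.0262), the only gene of 7173 (0.0139%) called in that comparison. Its wells were 12 of 12 below the gemcitabine median (589 CPM) and 10 of 12 below the albendazole median (539 CPM).

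CYP1A1, the other enzyme of the pair, fell as far in TruSeq and could not be resolved in PLATE-Seq. The TruSeq level (hg19 chr15:75011883-75017877, minus strand) was 101.6 and 94.9 CPM with aprepitant, 120.6 and 124.6 CPM with DMSO, 122.7 and 113.3 CPM with gemcitabine and 140.7 and 129.3 CPM with albendazole. Again both aprepitant pools were the lowest of the 8. The log2 fold change against DMSO was −0.31 (SE 0.05, edgeR adjusted p = 0.00456) and was no longer called without DMSO replicate 1 (−0.33, adjusted p = 0.067). The aprepitant wells of PLATE-Seq held only 6 to 33 CYP1A1 reads each, at 6.04 to 30.8 CPM (median 20.1), and the DMSO wells 3.75 to 35.5 CPM (median 18.9). The wells overlapped fully and the log2 fold change was 0.00 (SE 0.31, edgeR adjusted p = 0.999), an error as wide as the TruSeq fall itself.

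The promoter of CYP1A1 is shown because the xenobiotic response element is the sequence through which the AHR acts. The entry below is from RefSeq (GRCh38.p14 chr15:74725479-74725778, minus strand, 5′ to 3′, 250 bases before to 50 after the start), and the capitals mark the core GCGTG, searched on both strands. It occurred once, 57 bases before the start. Of 35116 promoters of this length, 36.5% held that core, so its presence is a description only.
CYP1A1 promoter: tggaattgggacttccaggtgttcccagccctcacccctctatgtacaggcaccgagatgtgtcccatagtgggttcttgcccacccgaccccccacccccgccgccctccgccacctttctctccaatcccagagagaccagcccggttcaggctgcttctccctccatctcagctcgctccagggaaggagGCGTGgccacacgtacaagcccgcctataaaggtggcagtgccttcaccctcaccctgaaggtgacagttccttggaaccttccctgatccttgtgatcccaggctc

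**Figure D1:**
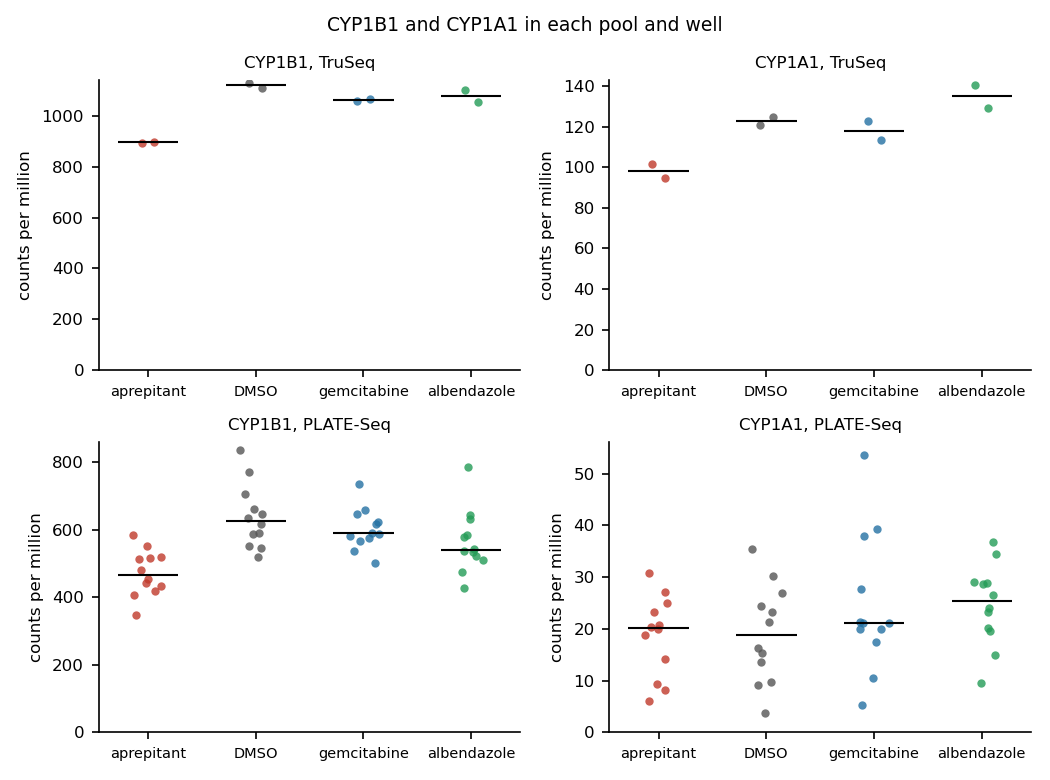
CYP1B1 and CYP1A1 in CPM (vertical axis, from 0) in each TruSeq pool and each PLATE-Seq well of the 4 groups; points are pools or wells. The aprepitant pools are the lowest for both genes, the aprepitant wells of CYP1B1 lie between 349 and 583 CPM, and the wells of CYP1A1 overlap.

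Of 12 AHR genes tested in TruSeq, 2 fell (CYP1A1 and CYP1B1) and 10 were not called, with a list median of −0.11. Over all genes tested, 0.601% were called lower. At an unadjusted p under 0.05, 6 of the 12 were lower, the called pair included, as were 1293 of all 14970 genes, and 1 was higher. The receptor gene AHR had 33.5 and 34.2 CPM with aprepitant against 40.6 and 39.2 with DMSO, a log2 fold change of −0.23 that was not called (edgeR adjusted p = 0.107). TIPARP, a target and feedback inhibitor of the receptor, was at −0.11 (SE 0.06), NQO1 at −0.11 (SE 0.04), the partner ARNT at −0.03 (SE 0.06) and the repressor AHRR at 0.17 (SE 0.08), none of them called. In PLATE-Seq, 4 of the 5 members tested in both assays had the same sign as in TruSeq.

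Among the 40 pathway lists examined, antioxidant genes had the most members that fell. Of 26 NRF2 genes tested, 7 fell and 19 were not called, 20 had negative values, and the median was −0.11 on the log2 scale. Over all 14970 genes, 0.601% were called lower and 7208 had negative values. GCLM, the modifier subunit of the enzyme that limits glutathione synthesis (hg19 chr1:94350755-94375012, minus strand), had 198 and 204 CPM with aprepitant against 258 and 243 CPM with DMSO. Its log2 fold change was −0.30 (SE 0.05, edgeR adjusted p = 0.00456). The gemcitabine pools, at 215 and 221 CPM, and the albendazole pools, at 199 and 205 CPM, also lay below both DMSO pools.

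The other 6 fell by less. TXNRD1, thioredoxin reductase, had 1538 and 1626 CPM with aprepitant against 1831 and 1803 CPM with DMSO (log2 fold change −0.19, SE 0.04), and SRXN1, sulfiredoxin, had 138.4 and 146.9 against 165.3 and 166.6 CPM (−0.21, SE 0.05). ME1, malic enzyme, which supplies NADPH, was at 144.6 and 146.3 CPM, below both DMSO pools (−0.22, SE 0.05). Among the aldo-keto reductases, AKR1C2 was at 147.7 and 151.3 against 186.2 and 178.1 CPM (−0.28, SE 0.05) and AKR1B10 at 501 and 520 against 594 and 551 CPM (−0.16, SE 0.04). AKR1C2 and AKR1C1 are near-identical copies, so how reads were split between them is uncertain. OSGIN1, an oxidative stress-induced growth inhibitor, was at 121.7 and 111.1 against 129.5 and 140.4 CPM (−0.20, SE 0.05). The cystine transporter gene SLC7A11 was at −0.41 (SE 0.11) and was not called (edgeR adjusted p = 0.0896), and NFE2L2 itself was at −0.12 (SE 0.05, not called).

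Of the references used, these falls were called against DMSO only. Against gemcitabine none of the 26 genes was called by edgeR or DESeq2 (5 were lower at an unadjusted p under 0.05, median −0.04), and likewise against albendazole (1 lower, median 0.00). Over all 14970 genes, 321 were lower at that p against gemcitabine and 449 against albendazole. The lane term left none of the 7 called, with a list median of −0.10, and without aprepitant replicate 1 or DMSO replicate 1 GCLM was no longer called (edgeR adjusted p = 0.09 and 0.1542). In PLATE-Seq 24 were tested and none was called by edgeR or DESeq2, with a median of −0.07 against 0.00 over all genes. The 3 with an unadjusted p under 0.05 were all lower: OSGIN1 at −0.68 (SE 0.28), AKR1C2 at −0.66 (SE 0.28) and SRXN1 at −0.47 (SE 0.23). OSGIN1 wells had a median of 15.4 CPM with aprepitant and 28.0 CPM with DMSO, and 11 of 12 aprepitant wells lay below the DMSO median, though the ranges overlapped. TXNRD1 had the opposite sign in PLATE-Seq (0.05, SE 0.09).

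The promoters of GCLM and ME1 are shown because they hold the antioxidant response element core TGACNNNGC (either strand, in capitals). Both are from RefSeq, GRCh38.p14, minus strand, 5′ to 3′: GCLM at chr1:93909381-93909680, with 1 match 34 bases before the start, and ME1 at chr6:83431002-83431301, with 2 matches. The first ME1 match also contains the AP-1 site TGACTCA. Of the 7 genes that fell, 6 had an entry and 3 of these (GCLM, ME1 and TXNRD1) held the core in a promoter entry, which is a description only, since the list was drawn up of NRF2 genes. Of all 35116 promoters, 13.4% held it.
GCLM promoter: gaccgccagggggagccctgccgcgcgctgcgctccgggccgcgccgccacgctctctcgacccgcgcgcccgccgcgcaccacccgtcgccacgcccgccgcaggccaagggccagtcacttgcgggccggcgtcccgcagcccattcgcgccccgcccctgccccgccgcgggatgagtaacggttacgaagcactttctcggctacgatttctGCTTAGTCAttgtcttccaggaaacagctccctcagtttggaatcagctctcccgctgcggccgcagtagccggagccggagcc
ME1 promoter: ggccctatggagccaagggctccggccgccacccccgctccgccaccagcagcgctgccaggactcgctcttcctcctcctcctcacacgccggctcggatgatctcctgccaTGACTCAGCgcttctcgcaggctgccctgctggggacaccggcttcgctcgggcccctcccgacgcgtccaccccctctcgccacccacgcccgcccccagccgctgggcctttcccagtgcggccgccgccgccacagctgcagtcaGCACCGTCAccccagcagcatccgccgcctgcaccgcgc

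**Figure D2:**
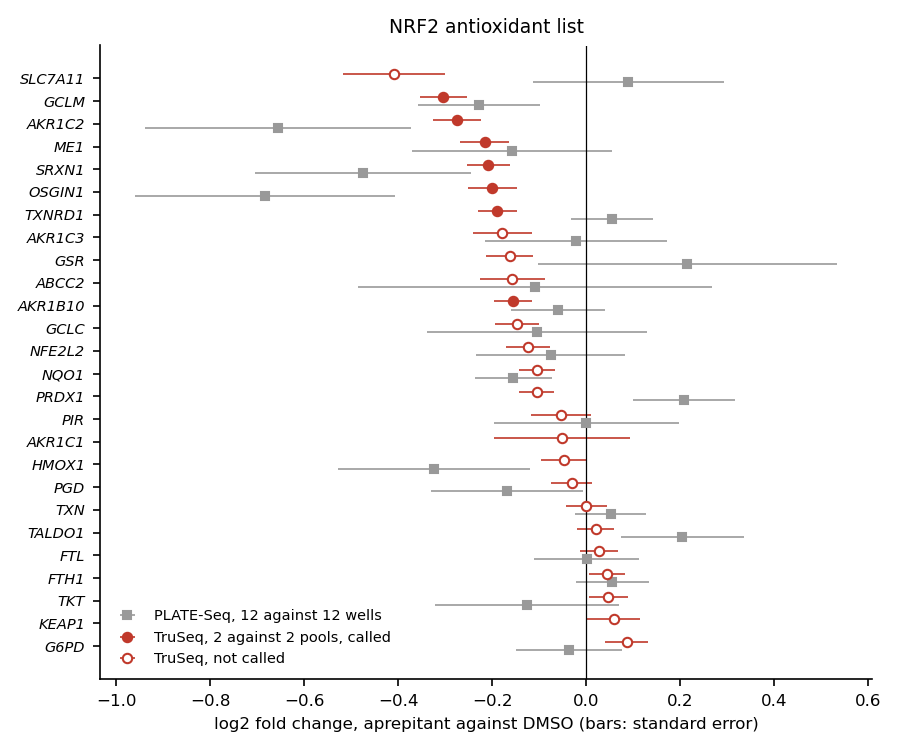
Log2 fold change of aprepitant against DMSO (horizontal axis) for each NRF2 gene tested; circles are TruSeq (filled where called), squares PLATE-Seq, and bars 1 standard error. The 7 called genes lie between −0.16 and −0.30 in TruSeq, and the PLATE-Seq values scatter more widely around a median of −0.07.

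Of the 272 called genes, 39 belonged to at least 1 of 40 pathway lists, 20 risen and 19 fallen, and 233 to none. Over all 14970 genes tested, 1.22% were called higher and 0.601% lower, the shares to set beside the list counts that follow. Ribosomal protein genes made up the most of those that rose, 7 of 77 tested, among them RPS21 (0.25), RPL37A (0.20), RPL35 (0.19), RPL18 (0.19), RPS16 (0.18) and RPS20 (0.18). RPS21 went from 341 and 347 CPM with DMSO to 426 and 384 CPM with aprepitant. The list was positive in 69 of 77 genes with a median of 0.08, and in PLATE-Seq its median was 0.09 with 61 of 77 positive. Over all genes, 7762 of 14970 were positive in TruSeq and 3212 of 6463 in PLATE-Seq. Against gemcitabine and albendazole the list medians were 0.03 and 0.04 in TruSeq, and 0.01 (41 of 77 positive) and 0.00 (37 of 77 positive) in PLATE-Seq. Ribosomal protein genes have many near-identical processed copies, so their values are uncertain at the level of single genes.

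Sugar metabolism and hypoxia genes had 3 risen members of 36 tested and a median of 0.08. NDRG1, a hypoxia-induced gene, had 55.7 and 55.2 CPM with aprepitant against 42.7 and 45.1 with DMSO (0.35, SE 0.06). Its gemcitabine pools held 48.15 and 52.09 CPM and its albendazole pools 54.04 and 56.29 CPM. PFKP, phosphofructokinase of platelet type, rose by 0.23 and PFKFB3, which makes the allosteric activator of phosphofructokinase, by 0.20. PFKP was at 178.1 and 171.1 CPM with aprepitant, 169.7 and 170.4 with gemcitabine and 182.1 and 171.5 with albendazole. PFKFB3 was at 109.9 and 110.4 CPM with aprepitant and lower with both drugs, at 100.8 and 100.6 with gemcitabine and 103.4 and 100.3 with albendazole. In PLATE-Seq against DMSO, PFKP was at 0.30 (SE 0.26) and PFKFB3 at −0.30 (SE 0.33), neither called, and NDRG1 was not tested. The hypoxia-associated RNA MIR210HG, in no list, went from 7.11 and 9.15 to 12.4 and 11.5 CPM (0.58, SE 0.11), but gemcitabine pools (12.0 and 11.9 CPM) and albendazole pools (12.3 and 12.0 CPM) had the same level as aprepitant. SREBF1, the regulator of fatty acid synthesis, rose by 0.42 (51.5 and 48.3 against 35.9 and 39.4 CPM), while 1 other of the 18 fatty acid genes tested, ME1, fell. SREBF1 was at 40 and 41.9 CPM with gemcitabine and at 52.7 and 43.5 CPM with albendazole. The transporter ABCC3 rose by 0.21, 1 of 8 genes tested for the drug-sensing receptors PXR and CAR. It was at 198.2 and 199.7 CPM with aprepitant, 174.3 and 165.1 with gemcitabine and 195.9 and 191.3 with albendazole.

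Signalling genes were split. The immediate early genes JUNB (0.32) and IER2 (0.24) rose, 2 of 24, with a list median of 0.15 against DMSO, −0.03 against gemcitabine and −0.12 against albendazole. In the ERK feedback list, DUSP5, a phosphatase for ERK (−0.34), and SPRED1, an inhibitor of RAS signalling (−0.32), fell, 2 of 17. DUSP5 was at 17.2 and 17.1 CPM with aprepitant, 19.6 and 19.8 with gemcitabine and 15.6 and 18.6 with albendazole. SPRED1 was at 42.2 and 40.0, 40.5 and 43.6, and 39.8 and 45.5 CPM in that order. The EGFR ligands EREG (−0.36) and TGFA (−0.19) fell, 2 of 24. Both were higher in every gemcitabine and albendazole pool than in the aprepitant pools. F3, tissue factor, 1 of 19 YAP target genes, also fell (−0.32), with 86.2 and 87.5 against 108.3 and 109.4 CPM. Its gemcitabine pools held 102.5 and 92.65 CPM and its albendazole pools 81.52 and 92.71 CPM. In PLATE-Seq against DMSO, IER2 (0.46, SE 0.36) and F3 (−0.24, SE 0.19) had the same sign as in TruSeq. SPRED1 (0.17, SE 0.34) and TGFA (0.02, SE 0.26) had the opposite sign, and none of these was called. JUNB, DUSP5 and EREG were not tested there.

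Single members were called in 9 further lists. ULK1, an autophagy kinase, TNFAIP2, LTBP3, COL4A2, POLD1 and INCENP rose by 0.26, 0.20, 0.30, 0.21, 0.24 and 0.18, and CHORDC1, an HSP90 co-chaperone, and TFRC, the transferrin receptor, fell by 0.27 and 0.16 on the log2 scale. PMAIP1, a BH3-only protein of the BCL2 family, fell by 0.49 but was low, at 5.08 to 8.83 CPM. With the offsets for GC content and transcript length given below, none of these risen genes was called (edgeR adjusted p at least 0.25). PMAIP1 was not called either (edgeR adjusted p = 0.0796), whereas CHORDC1 and TFRC were. No gene was called by edgeR among 24 for cholesterol synthesis (4 at an unadjusted p under 0.05, which 19.1% of all genes had), 36 lysosomal (10), 40 ATF4 (9), 25 endoplasmic reticulum chaperone (6), 31 proteasome (1) and 72 respiratory chain genes (10). DESeq2 called 1 ATF4 and 1 respiratory chain gene and none in the other 4 lists.

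The largest changes among genes of at least 10 CPM lay mostly outside the lists. TMEM238 (0.60), MIR210HG (0.58), NOXA1, an activator of NADPH oxidase (0.52), NUDT19 (0.51), ZNF414 (0.51) and PAQR6 (0.49) led the rises, and PHTF2, C16orf52 and PELI1, a ubiquitin ligase of Toll-like receptor signalling (each −0.38), RAB11FIP2 (−0.37), EREG (−0.36) and TMX1 (−0.35) led the falls. With offsets for GC content and transcript length (described below), 5 of the 12 largest rises and 8 of the 12 largest falls were called, and the values of TMEM238 and NOXA1 were 0.18 (edgeR adjusted p = 0.504) and 0.23 (edgeR adjusted p = 0.195), not called. The called ones include C19orf70 and SUV420H2 (risen) and C16orf52 (fallen), which had no known GC content and so were not corrected. PELI1 went from 41.1 and 41.6 CPM with DMSO to 31.9 and 31.2 CPM with aprepitant. TMEM238 went from 7.56 and 8.01 to 11.9 and 11.4 CPM. Of the 12 largest in each direction, 4 risen and 4 fallen genes were abundant enough to be tested in PLATE-Seq.

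Risen and fallen genes differed in base composition. The median GC content of the longest transcript was 62.8% for risen genes, 38.4% for fallen genes and 48.5% for all tested genes. By GC class, the median log2 fold change against DMSO over all genes ran from −0.09 below 40% through −0.04 and 0.05 to 0.15 at 60% and over, and all but 1 of the called genes in the top class rose while 56 of 57 in the bottom class fell. The same classes ran from −0.04 to 0.06 against gemcitabine, from 0.02 to −0.06 against albendazole and from 0.02 to −0.02 against DMSO in PLATE-Seq. Single pools differed. Relative to the DMSO mean, these medians ran from −0.14 to 0.19 in aprepitant replicate 1 (lane 1) and from −0.06 to 0.07 in replicate 2 (lane 2). DMSO replicate 2 ran from −0.03 to 0.05, and replicate 1 mirrors it. Gemcitabine pools ran from −0.05 to 0.06 and −0.09 to 0.08, albendazole pools from −0.14 to 0.22 and −0.10 to 0.16. With offsets for GC content and transcript length, chosen after seeing the data, 252 genes were called, and 58 of the risen and 51 of the fallen genes above were among them. CYP1A1, CYP1B1 and all 7 NRF2 genes were among these, as were NDRG1, SREBF1, F3, DUSP5, SPRED1 and 6 of the 7 ribosomal protein genes. Of the 39 called list members, 26 were called with the offsets. The 2 immediate early genes were not, nor were EREG, TNFAIP2, ULK1, LTBP3, COL4A2, POLD1, INCENP and PMAIP1.

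**Figure D3:**
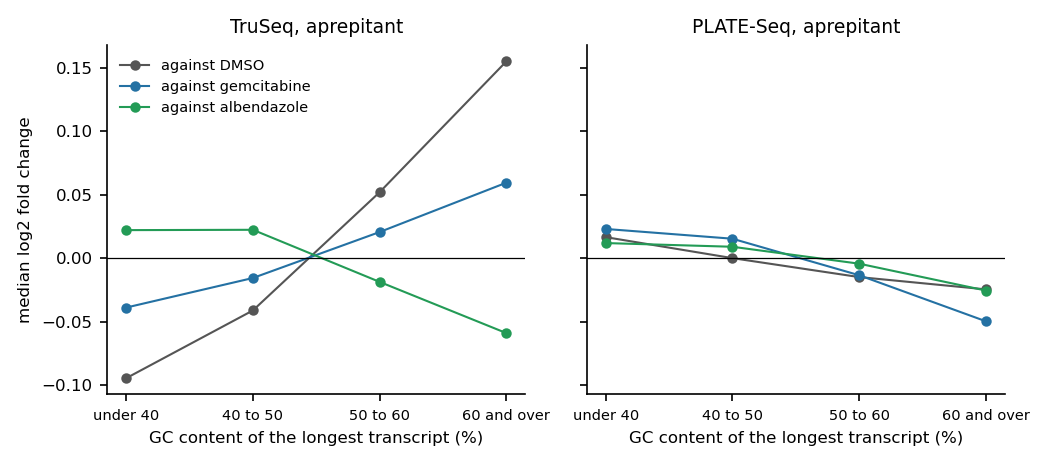
Median log2 fold change of aprepitant (vertical axis) over genes in 4 classes of transcript GC content (horizontal axis), against DMSO, gemcitabine and albendazole, in TruSeq and in PLATE-Seq. Against DMSO the TruSeq medians rise from −0.09 to 0.15, and the PLATE-Seq medians stay between −0.02 and 0.02.

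Pools of the other drugs deviated from DMSO in the same direction over the called genes. Relative to the mean of the DMSO pools, the risen genes had a median log2 deviation of 0.33 and 0.21 in the aprepitant pools, 0.14 and 0.15 in the gemcitabine pools and 0.34 and 0.27 in the albendazole pools. The 90 fallen genes had −0.28 and −0.22, −0.13 and −0.14, and −0.24 and −0.21. These values share the same DMSO pools and are given side by side only. Both albendazole pools and aprepitant replicate 1 were in lane 1, and aprepitant replicate 2 and the gemcitabine and DMSO pools in lane 2. For risen genes the lane 1 pools had 0.33, 0.34 and 0.27, and the drug pools of lane 2 had 0.21, 0.14 and 0.15. For fallen genes they had −0.28, −0.24 and −0.21, and −0.22, −0.13 and −0.14. A part of lane in these values was not tested. The genes were chosen on the aprepitant and DMSO pools, so their values in those pools are a description.

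**Figure D4:**
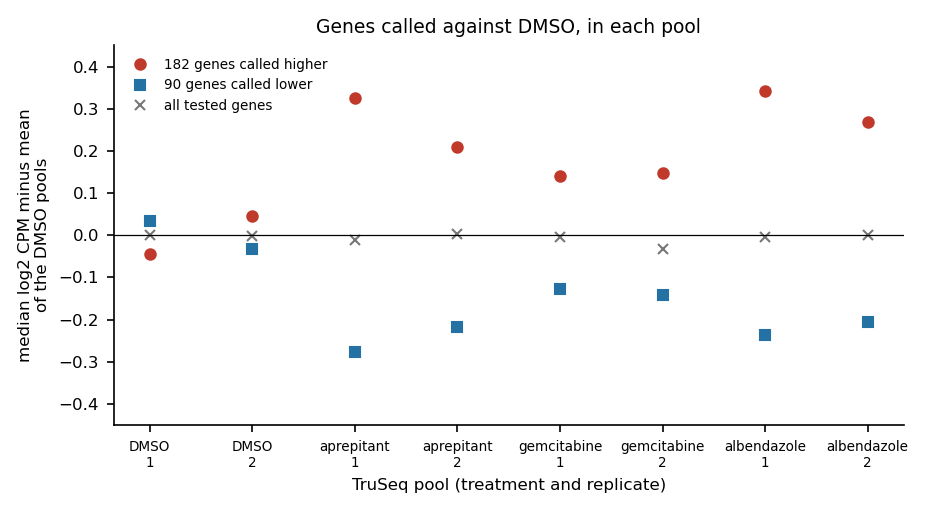
Median log2 deviation from the mean of the DMSO pools (vertical axis) of the genes that rose and those that fell with aprepitant, in each TruSeq pool of 4 groups (horizontal axis). The albendazole pools, at 0.34 and 0.27 for risen genes, sit beside the aprepitant pools at 0.33 and 0.21. Both albendazole pools and aprepitant replicate 1 were in lane 1, and the other pools shown in lane 2.

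Set against the other drugs instead of the vehicle, few genes were called with aprepitant. These comparisons share the aprepitant pools. TruSeq called 1 of 14970 genes (0.00668%) against gemcitabine, CYP1B1, with a log2 fold change of −0.26 (edgeR adjusted p = 0.00236), which was lost without gemcitabine replicate 2 (−0.24, adjusted p = 0.192) and with the lane term (−0.26, adjusted p = 0.0567). CYP1A1 was at −0.27 there and was not called (edgeR adjusted p = 0.076). Against albendazole 6 genes (0.0401%) were called, CYP1A1 (−0.45), CYP1B1 (−0.27) and the tubulin genes TUBA4A (0.40), TUBB (0.34), TUBA1C (0.25) and TUBA1B (0.22). CYP1B1 was no longer called there without albendazole replicate 1 (−0.23, edgeR adjusted p = 0.115). The α-tubulin gene TUBA4A had 179.2 and 167.6 CPM with aprepitant and 136.9 and 126.1 CPM with albendazole. Tubulin genes have near-identical copies, so the split of reads among them is uncertain. Against both drugs together 2 genes (0.0134%) were called, CYP1B1 (−0.26, edgeR adjusted p = 5.84e-05) and CYP1A1 (−0.36, edgeR adjusted p = 5.74e-05).

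By edgeR, PLATE-Seq called 1 gene against each drug. Against albendazole, 1 of 6105 (0.0164%), it was TUBA4A, with 71.2 to 165.5 CPM (median 114.1) in the aprepitant wells and 22.9 to 99.8 CPM (median 59.1) in the albendazole wells. Its median was 98.95 CPM in the DMSO wells and 105.3 CPM in the gemcitabine wells. All 12 aprepitant wells exceeded the albendazole median, the ranges overlapped, and the log2 fold change was 0.79 (SE 0.16, edgeR adjusted p = 0.0464). It was not called with RLE size factors or without the 6 most abundant symbols. Against gemcitabine, 1 of 6473 (0.0154%), it was ITM2B, a membrane protein of the BRICHOS family, with 200.3 to 445 CPM (median 292) against at most 277 CPM (median 213). ITM2B rose by 0.52 (SE 0.10, edgeR adjusted p = 0.0353), and it was not called with all 96 wells in 1 fit or with a replicate block. TruSeq gave it −0.09 against gemcitabine. DESeq2 called 3 genes against gemcitabine, ITM2B, PPIH and CYP1B1 (−0.35, DESeq2 adjusted p = 0.0277). Against albendazole DESeq2 called 2, TUBA4A and STRAP, and not CYP1B1 (DESeq2 adjusted p = 0.0667).

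Against DMSO, PLATE-Seq called 0 of 6463 genes by edgeR, with 356 (5.51%) at an unadjusted p under 0.05, and 2 (0.0309%) by DESeq2, CYP1B1 and PABPC4. Without DMSO replicate 5 or without DMSO replicate 6 edgeR still called 0. PABPC4, a cytoplasmic poly(A)-binding protein, had 49.2 to 121.5 CPM with aprepitant (median 81.3) and at least 98.8 CPM with DMSO (median 119.3), and 10 of 12 aprepitant wells lay below every DMSO well. Its log2 fold change was −0.56 (edgeR adjusted p = 0.272, DESeq2 adjusted p = 0.0453). Gemcitabine wells (median 86.3 CPM) and albendazole wells (median 84.4 CPM) were at the level of aprepitant, and TruSeq gave PABPC4 0.04.

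The other genes with the smallest PLATE-Seq p among those of at least 50 CPM were not called by either tool. They were higher for RPL3, a ribosomal protein (0.45), EEF1B2, an elongation factor subunit (0.33), BC037952 (0.42), PTGFRN (0.46) and ATAD2 (0.45), and lower for FAM102A (−0.45), MGAT4B (−0.57) and ACIN1 (−0.37). EEF1B2 wells had a median of 329 CPM with aprepitant and 264 CPM with DMSO, and 11 of 12 aprepitant wells exceeded the DMSO median. In TruSeq RPL3 was at 0.03, EEF1B2 at −0.01, ATAD2 at −0.12 and MGAT4B at 0.08.

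The 2 assays were then compared by direction against DMSO, a comparison between readouts of the same wells rather than of separate cells. Over all 6450 genes tested in both, 3310 (51.3%) had the same sign. Of the genes called in TruSeq that were also tested in PLATE-Seq, 63.2% had the same sign, made up of 65 risen (61.9% of the risen) and 43 of 66 fallen genes (65.2%). Among the 58 called genes with at least 50 CPM in PLATE-Seq the count was 41 (70.7%). Of the called genes tested in both assays, 13 also had an unadjusted PLATE-Seq p under 0.05. Of these, 11 had the same sign, among them CYP1B1, OSGIN1, AKR1C2, SRXN1, CHORDC1 and SLC38A2 lower and GUK1, TMEM259, MTRNR2L2 and STRF6 higher. The other 2, GRIN2D and MEGF6, had the opposite sign. Such a p was held by 356 of all 6463 genes tested in PLATE-Seq (5.51%). The 13 were not tested against that background and are a description only. The share depended on the TruSeq pools: it was 55.4% without aprepitant replicate 2 and 54.7% without DMSO replicate 2, and without aprepitant replicate 1 or DMSO replicate 1 at most 2 genes remained to compare.

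By pathway, 15 of the 27 lists reported here with at least 9 genes in both assays had a share above 51.3%. The share was 9 of 11 (81.8%) for immediate early genes, 7 of 9 (77.8%) for fatty acid synthesis, 59 of 77 (76.6%) for ribosomal proteins, 17 of 24 (70.8%) for NRF2 genes, 20 of 30 (66.7%) for ATF4 genes and 46 of 70 (65.7%) for the respiratory chain. Within the ribosomal proteins 56 of the 69 positive in TruSeq and 3 of the 8 negative kept their sign, and 61 of all 77 were positive in PLATE-Seq. Within the NRF2 genes 14 of 19 negative and 3 of 5 positive genes kept it, and within the respiratory chain 40 of 54 positive and 6 of 16 negative genes. ATF4 genes kept it in 9 of 18 positive and 11 of 12 negative genes, with medians of 0.02 in TruSeq and −0.09 in PLATE-Seq. A list that leans to 1 side in both assays has a high share without gene by gene agreement. Glycolysis and hypoxia genes, at 13 of 25 (52.0%), and mitotic genes, at 30 of 60 (50.0%), were near the share of all genes. Lists below it included lysosomal genes, at 9 of 24 (37.5%), and DNA replication genes, at 12 of 36 (33.3%). Genes of a list share wells and pools and are not replicates, so these shares are descriptions. By GC class the share was 49.1%, 53.2%, 52.0% and 48.1% from the lowest to the highest.

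**Figure D5:**
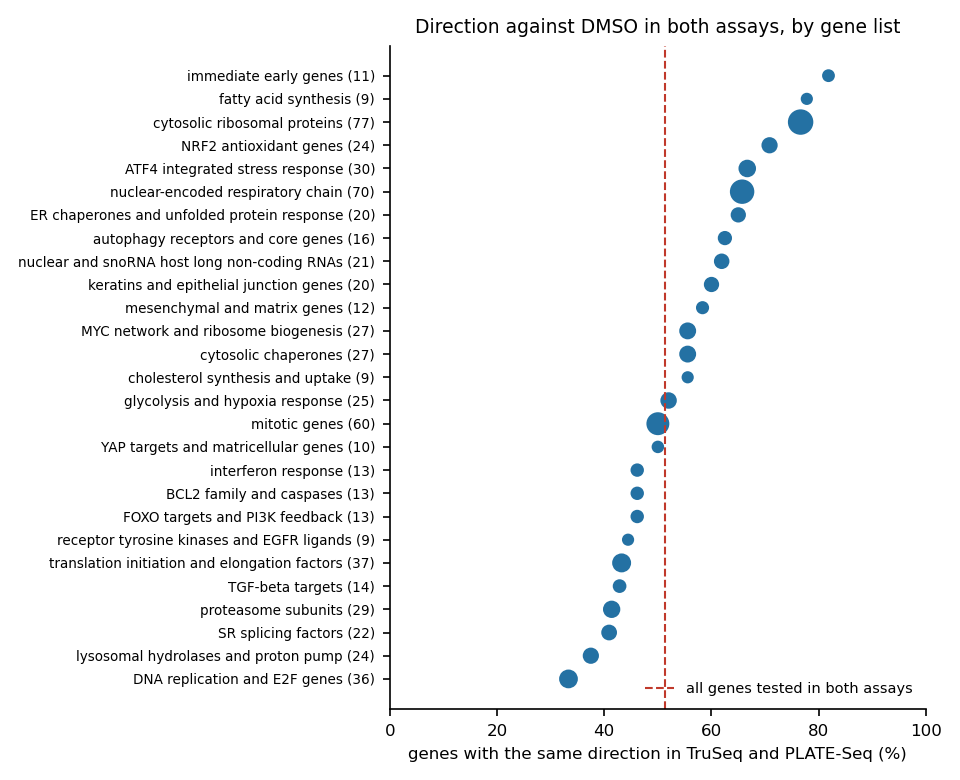
Share of genes (horizontal axis, percent) with the same direction against DMSO in TruSeq and PLATE-Seq, for each pathway list reported with at least 9 genes tested in both (number in parentheses; larger points are larger lists). The line marks the 51.3% of all genes; ribosomal proteins (76.6%) and NRF2 genes (70.8%) lie to its right and DNA replication genes (33.3%) to its left.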

How the data were processed

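Per the paper's methods and the files, the authors prepared PLATE-Seq libraries from each well with barcoded oligo(dT) primers, aligned reads with bwa-mem to hg19 and counted uniquely mapped sense reads per UCSC gene symbol. The deposited values are raw counts per gene, with no molecular identifiers, for 28430 symbols in both tables. For TruSeq the submitters' processing notes name BWA and hg19, and the counting step and the wells in each pool are not given in the sources used here. The authors' counts were used as deposited, and 92 spike-in symbols were left out of library sizes. Reads from near-identical copies and overlapping genes cannot be separated further.

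Genes were filtered with filterByExpr, scaled by TMM and tested with the quasi-likelihood F-test of edgeR 4.0.16 (R 4.3.3) with Benjamini-Hochberg adjustment over all genes tested. PLATE-Seq fits held 12 against 12 wells. TruSeq fits held all 16 pools, so that groups share 1 estimate of the spread. DESeq2 1.42.0 was an alternative. Standard errors are on the log2 scale, and levels are CPM without spike-ins. The scripts were tested on simulated data. GC content and length came from the longest GENCODE transcript (GRCh37), known for 84.4% of genes tested. Genes without these values got no GC and length correction in the offset fit. No replicate pair of TruSeq pools agreed within sampling noise (chi-square per degree of freedom from 2.90 to 30.7). Gene deviations of wells in the same run of 8 were hardly correlated: over 12 pairs the correlation ran from −0.09 to 0.06. Spike-in reads did go with the run.

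Named genes were the 12 largest TruSeq rises and falls of at least 10 CPM whose pools did not overlap, the 5 PLATE-Seq rises and falls with the smallest p of at least 50 CPM, tachykinin genes, called list members and genes called in PLATE-Seq by either tool. Only some are printed. SLC7A11, AHR and other uncalled list members, and genes named for both assays, were chosen after their values were seen. The samples, lists and comparisons were chosen with earlier results of these data known. Some genes and 1 gene list are not reported here.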

Additional observations from a re-analysis of the deposited data

How the results depend on the processing

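Of 65 recomputed counts and shares, 35 stayed within 1.5 times the first value (shares within its error), and 30 moved. Causes were not tested. For TruSeq against DMSO (272 genes), no filter on low counts gave 761, only the 4 pools compared 110, the lane term 3, and leaving out 1 pool 1 to 814. DESeq2 gave 219, other size factors (RLE) 279 and the GC and length offset 252. For TruSeq against gemcitabine (1 gene), DESeq2 gave 2, no filter 6, only the 4 pools 5, the lane term 0, the offset 3, and leaving out 1 pool 0 to 2. Against albendazole (6 genes) the count ran from 4 to 9. In PLATE-Seq, DESeq2 gave 2 against DMSO, 3 against gemcitabine and 2 against albendazole. Against gemcitabine all 96 wells in 1 fit gave 0. Against albendazole RLE gave 0, no filter 3 and leaving out the 6 most abundant symbols 0. The replicate block of runs of 8 wells gave 0 against DMSO, 0 against gemcitabine (ITM2B lost) and 1 against albendazole, and changed no other PLATE-Seq call. Spike-in reads alternated between high and low from run to run, so wells of a run shared more than a number. In the aprepitant, DMSO, gemcitabine and albendazole wells, replicate 1 had 75958, 45053, 62213 and 73009 spike-in reads. Replicate 2 had 668, 1865, 1331 and 1279 in that order. The labels name no such block, and the main fits did not use it. The share of called genes with the same direction in both assays (63.2%) was 80.0% at an adjusted p under 0.01 (12 of 15 genes), 53.8% with no filter, 50.0% with the lane term (1 of 2), 70.7% for genes of at least 50 CPM and 50.0% to 100.0% leaving out 1 pool. Of 61 named genes called in TruSeq against DMSO, 59 lost the call with the lane term and 23 with the offset. None of the 61 changed sign in that comparison under these alternatives or on leaving out 1 pool. In all 272 called genes the aprepitant and DMSO pools did not overlap. Leaving out a pool could therefore hardly reverse a sign, and the unchanged signs are a description only. The offset, the joint reference of both drugs and the fit without DMSO replicate 6 were chosen after seeing the data. In PLATE-Seq, CYP1A1 had 6 to 33 reads per aprepitant well and a standard error of 0.31 on the log2 scale, so a difference of the size seen in TruSeq was not detectable there.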
